A study of Mus musculus with 18 samples.

Results

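Polycomb repressive complex 1 (PRC1) and its Bcor-containing form were followed through 10 genes, Bcor, Kdm2b, Pcgf1, Pcgf6, L3mbtl2, Ring1, Rnf2, Cbx2, Cbx7 and Phc1, taken by symbol from the 20703 genes of the deposited RNA-seq table. Each symbol had a single row, and all 10 genes had passed the removal of genes with a low average count. The libraries came from E14 mESCs, a male mouse embryonic stem cell line, that were either WT or Nsd1-KO, and were collected at day 0, before LIF and the feeder cells were withdrawn, and at day 2 and day 4 of differentiation as a monolayer. There were 2 biological replicates of WT, of KO-1 and of KO-2 at each day, 18 libraries in all. KO-1 and KO-2 are 1 clone each, in which exon 5 of Nsd1, the gene of an H3K36 methyltransferase, had been deleted with CRISPR-Cas9. They were derived from E14 cells whose Nsd1 carries a 3×Flag tag, and whether the WT libraries carry the tag as well is not given in the labels. On GRCm38, the build of the annotation used here, Bcor lies at chrX:12036740-12160355, Kdm2b at chr5:122870665-122989823, Cbx7 at chr15:79915807-79971119 and Phc1 at chr6:122317731-122340561, each on the minus strand. The comparison asks how the supply of Polycomb subunits differed without Nsd1 at each day.

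PRC1 places ubiquitin on histone H2A (H2AK119ub), a mark of genes held silent until a lineage needs them, and works beside PRC2, which writes H3K27me3. Every PRC1 has a catalytic RING protein, Ring1 or Rnf2, and a PCGF protein that sets the form of the complex. In canonical PRC1 a CBX protein such as Cbx7 or Cbx2 binds H3K27me3 and a polyhomeotic protein such as Phc1 compacts chromatin. In variant PRC1 other subunits bring the complex to DNA. PRC1.1 holds Pcgf1, Bcor or Bcorl1, and Kdm2b, whose CXXC zinc finger binds unmethylated CpG. PRC1.6 holds Pcgf6 and L3mbtl2 with Mga, Max and E2f6, and is known in mESCs for repressing germline genes. Cbx7 is the main CBX protein of the pluripotent state and Cbx2 is known to take over as mESCs differentiate.

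Values are the authors' variance stabilized (VST) values on a log2 scale, with the counts recovered from them and divided by the authors' size factors (normalized counts). Libraries summed to between 9309874 and 23921193 counts over genes (median 15721348). The WT libraries of day 2 were the shallowest, with 9309874 and 9356867 counts. Behind the members stood from 32 counts, the lowest of Pcgf1, to 16220.0 counts, the highest of Phc1. Calls were made by limma on the VST values and required an adjusted p below 0.01, by Benjamini-Hochberg over all 20703 genes, together with a log2 fold change beyond 0.58 in either direction. VST compresses changes, those of low genes the most, but not theirs alone. Bcor at day 4, for example, had a log2 fold change of −1.37 on VST and −2.32 by limma-voom. The fold change of limma-voom on the recovered counts is therefore given as well for many of the genes. An exact permutation test of the 4 KO against the 2 WT libraries of a day cannot give a 2-sided p below 0.0667, and none was run.

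In WT at day 0, Nsd1 itself reached 3374 and 3659.9 normalized counts, against 837 and 711 in KO-1 and 689 and 635 in KO-2. On the log2 scale KO minus WT was −1.69 (day 0), −1.27 (day 2) and −1.06 (day 4), called each time, with all KO libraries below both WT libraries, and by limma-voom it was −2.31, −1.70 and −1.52. Counts cover all exons of Nsd1, so transcripts without exon 5 are still counted. The mESC markers Pou5f1, Nanog, Sox2, Zfp42 and Esrrb were all detected in every library, and at day 0 they summed to between 46851 and 51554 normalized counts, with Esrrb the most abundant.

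CpG is what the zinc finger of Kdm2b reads, so the bases before the start are shown for Bcor and Cbx7, the 2 members called between KO and WT in which at least 100 of them lie outside annotated exons. They are RefSeq sequence on GRCm38.p6, whereas the authors aligned to mm39, 5′ to 3′ on the minus strand, with CG in capitals and no annotated exon inside. A promoter entry was found for 8 of the 10 members. For Bcor it covers chrX:12160356-12160605, and for Cbx7 it is the part of the 250 bases before the start that lies at chr15:79932769-79932896. The RefSeq start of Cbx7 used here lies inside the gene span given above, which GENCODE draws out to an upstream start, and the bases before that other start were not used.
Bcor: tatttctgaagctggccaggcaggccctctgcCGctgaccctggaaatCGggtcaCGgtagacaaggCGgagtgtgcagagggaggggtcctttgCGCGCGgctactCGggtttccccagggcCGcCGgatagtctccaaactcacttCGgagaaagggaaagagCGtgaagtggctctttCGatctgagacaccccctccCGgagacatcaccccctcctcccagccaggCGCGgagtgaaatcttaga
Cbx7: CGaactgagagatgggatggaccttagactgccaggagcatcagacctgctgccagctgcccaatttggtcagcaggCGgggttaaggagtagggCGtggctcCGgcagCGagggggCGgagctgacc
In the full 250 bases before the start, Bcor had 16 CG and Cbx7 23, and 25.5% and 13% of 27025 mouse promoters (1 per gene) had at least as many. The count was 8 for Phc1, reached by 43.4% of promoters, and 27 for Kdm2b, reached by 8.18%. The median over all promoters was 6. These are letters in a window and were not compared with any binding data.

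Per length, the members differed widely in level. In WT mESCs at day 0, Phc1 stood highest by far, at 629 ± 10.5 (SD, n = 2) TPM, a measure of transcript number corrected for gene length and depth. Cbx7 with 107 ± 0.154 and Rnf2 with 103 ± 1.56 followed, then L3mbtl2 with 78.6 ± 4.48. Cbx2 (41.0 ± 4.16), Pcgf6 (37.3 ± 0.838) and Kdm2b (35.2 ± 0.718) lay close together. Bcor (19.8 ± 1.55), Pcgf1 (18.6 ± 0.116) and Ring1 (7.30 ± 1.99) were the lowest. The ranges of neighbours in this order did not overlap, but each rests on 2 libraries, and Cbx7 and Rnf2, Pcgf6 and Kdm2b, and Bcor and Pcgf1 were nearly level. The mESCs thus carried mainly Rnf2 over Ring1, Cbx7 over Cbx2 and Phc1 over the other polyhomeotic genes.

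**Figure D1:**
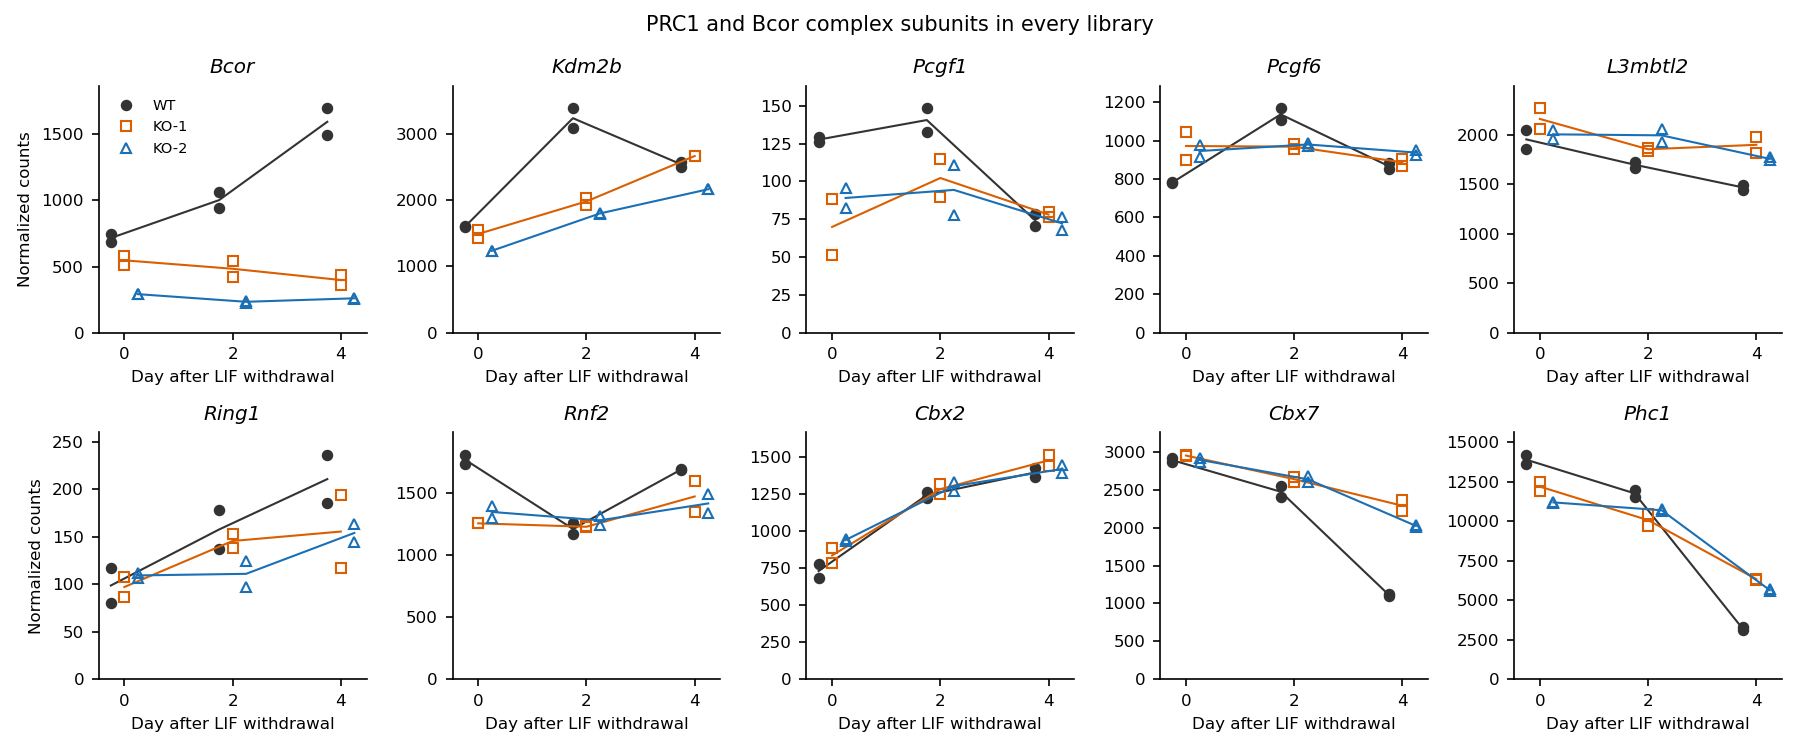
Normalized counts (y, linear from 0) of each member by day (x) in every library, with WT as black circles, KO-1 as orange squares and KO-2 as blue triangles, shifted sideways for legibility, and lines through the means of 2 libraries. Bcor rose in WT to 1697 and 1494 and lay between 223 and 581 in the KO libraries, and at day 4 Cbx7 and Phc1 were higher in every KO library than in WT.

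Bcor, the corepressor that gives PRC1.1 its scaffold, showed the largest difference between KO and WT of the members at each day, with the clones pooled. In KO-1 alone this rank did not hold at day 0, where its mean was 547 normalized counts (716 in WT) and that of Rnf2 1255 (1770 in WT). At day 0 Bcor had 748 and 683 normalized counts in WT, 581 and 512 in KO-1, and 292 and 289.8 in KO-2. At day 2 the values were 943 and 1062 in WT, 422 and 544 in KO-1, and 243 and 223 in KO-2. At day 4 they were 1697 and 1494 in WT, 439 and 357 in KO-1, and 256 and 263 in KO-2. At every day WT was the highest, KO-1 came next and KO-2 was the lowest, with no overlap between KO and WT. The WT mean was 1.71-fold that of KO at day 0, 2.80-fold at day 2 and 4.85-fold at day 4. On VST, KO minus WT came to −0.44 (adjusted p = 0.0303, not called), −0.86 (adjusted p = 8.56e-05) and −1.37 (adjusted p = 2.09e-07) on the log2 scale for these days, each with an SE of 0.15, by limma with Benjamini-Hochberg adjustment. By limma-voom it was −0.89, −1.60 and −2.32. Because these are bulk libraries, fewer cells that express a gene and less RNA of it in each cell cannot be told apart.

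Its level moved with time in WT. There, Bcor rose from day 0 to day 4 by 0.77 on the log2 scale (adjusted p = 7.86e-04, limma), 2.23-fold in mean normalized counts and by 1.14 in limma-voom. In KO the same contrast was −0.15 (adjusted p = 0.328). The KO effect of day 4 differed from that of day 0 by −0.92 (SE 0.21, adjusted p = 0.00217, limma, −1.43 by limma-voom), and that of day 2 from that of day 0 by −0.42 (adjusted p = 0.172, not called). Leaving out replicate 2 of WT day 0 or replicate 1 of WT day 4 ended the call of the day 4 difference between effects (at −0.89 and −0.86) and that of the rise in WT (at 0.73 and 0.70), with adjusted p of limma between 0.0108 and 0.0214.

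Kdm2b, the demethylase that anchors PRC1.1 at CpG islands, was lower in KO at day 2. At day 0 it had 1601 and 1587 normalized counts in WT, 1553 and 1422 in KO-1, and 1238 and 1229.5 in KO-2. At day 2 WT had risen to 3086 and 3381, while KO-1 had 1932 and 2026 and KO-2 1791 and 1804. At day 4 WT had 2579 and 2497, KO-1 2659 and 2667, and KO-2 2159 and 2164. The KO libraries thus lay below WT at day 0 and day 2 and on both sides of it at day 4. KO against WT gave a log2 fold change of −0.17 at day 0 (adjusted p = 0.128), −0.63 at day 2 (SE 0.08, adjusted p = 2.95e-06, −0.78 by limma-voom) and −0.06 at day 4 (adjusted p = 0.596, limma). In WT, Kdm2b rose by 0.81 from day 0 to day 2 (adjusted p = 8.25e-07, limma), and in KO by 0.63 from day 0 to day 4 (adjusted p = 1.14e-07, limma), where the change to day 2 was 0.35 (not called). The KO effect of day 2 minus that of day 0 was −0.46 (adjusted p = 0.00706), and that of day 4 minus that of day 2 was 0.56 (adjusted p = 8.74e-04, limma). Both were under the fold threshold, and the second was called by limma-voom, at 0.70. The day 2 call was lost at −0.57, just inside the fold threshold, with KO-1 alone, after centring on the median, and without replicate 2 of WT day 2. Of the annotated exon bases of Kdm2b, 8.74% overlap other genes, among them Rnf34 on the opposite strand, and the library kit keeps no strand. It also shares 615 bases with the pseudogene Gm12397.

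Phc1, the polyhomeotic subunit of canonical PRC1, was higher in KO at day 4. At day 0 it had 13603 and 14209.6 normalized counts in WT, 12491 and 11914 in KO-1, and 11249 and 11152 in KO-2. At day 2 the values were 11545 and 12002 in WT, 9718 and 10435 in KO-1, and 10651 and 10753 in KO-2. At day 4 WT had dropped to 3276 and 3098, while KO-1 kept 6373 and 6296 and KO-2 5579.5 and 5691. The KO libraries were below WT at day 0 and day 2 and above it at day 4. KO against WT gave a log2 fold change of −0.24 at day 0 (adjusted p = 0.0132) and −0.17 at day 2 (adjusted p = 0.0507), neither called, and 0.79 at day 4 (SE 0.07, adjusted p = 8.37e-09, limma, 0.91 by limma-voom), a mean 1.88 times that of WT. From day 0 to day 4, Phc1 fell by 1.93 on the log2 scale in WT and by 0.90 in KO, both called, and the KO effect of day 4 exceeded that of day 0 by 1.03 (SE 0.10, adjusted p = 7.54e-08, limma) and that of day 2 by 0.97.

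Cbx7, the reader of H3K27me3 in mESCs, was called higher in KO at day 4 and at no other day. At day 0 it had 2866 and 2918 normalized counts in WT, 2945 and 2962 in KO-1, and 2921 and 2872 in KO-2, and the groups overlapped. At day 2 the values were 2407 and 2545 in WT, 2675 and 2608 in KO-1, and 2679 and 2601 in KO-2, so that all KO libraries lay slightly above both WT libraries without a call. At day 4 they were 1123 and 1101 in WT, 2219 and 2361 in KO-1, and 2042 and 2006 in KO-2, and every KO library lay far above both WT libraries. KO against WT gave a log2 fold change of 0.01 at day 0 (adjusted p = 0.892), 0.08 at day 2 (adjusted p = 0.291) and 0.70 at day 4 (SE 0.06, adjusted p = 2.39e-09, limma, 0.96 by limma-voom), a mean 1.94 times that of WT. From day 0 to day 4 it fell by 1.04 in WT, which was called, and the change in KO was −0.36 (adjusted p = 1.72e-06, limma, under the fold threshold). The KO effect of day 4 exceeded that of day 0 by 0.69 (SE 0.08, adjusted p = 1.18e-06, limma) and that of day 2 by 0.62.

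Cbx2, the CBX protein of differentiating cells, went up with time and was not called between KO and WT. In WT it went from 773 and 683 normalized counts at day 0 to 1426 and 1361 at day 4, and in KO from 784 and 884 (KO-1) and 946 and 930.3 (KO-2) to 1439 and 1512 and 1446 and 1388. The log2 fold change from day 0 to day 4 was 0.62 in WT (adjusted p = 7.70e-08, called) and 0.48 in KO (adjusted p = 2.14e-08, under the fold threshold, 0.70 and called by limma-voom). The WT call was lost at 0.54 after quantile normalization and at 0.56 without replicate 2 of WT day 0. KO and WT differed by 0.17 at day 0 (adjusted p = 0.0233), 0.04 at day 2 and 0.04 at day 4, none called. The difference between the effects at day 4 and day 0 was −0.14 (SE 0.08, adjusted p = 0.235, limma).

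The catalytic RING genes were not called between KO and WT at any day. At day 0 Rnf2, the main E3 ligase in mESCs, had 1734 and 1807 normalized counts in WT and 1256, 1255, 1301 and 1394 in the KO libraries, all below WT. The KO effect was −0.33 on the log2 scale at day 0 (SE 0.06, adjusted p = 2.52e-04), 0.04 at day 2 and −0.17 at day 4 (adjusted p = 0.0280, limma), so the day 0 difference passed the p threshold but not that of the fold. The KO effect of Rnf2 at day 2 exceeded that of day 0 by 0.36 (adjusted p = 0.00375, limma, under the fold threshold). Ring1, its lowly expressed paralog, went in WT from 117 and 80.6 normalized counts at day 0 to 185 and 236 at day 4, while the KO libraries of day 4 had between 117 and 194. Its fold changes were 0.02, −0.09 and −0.16, and the groups overlapped at each day. In WT the change of Ring1 from day 0 to day 4 was 0.35 (adjusted p = 7.11e-04, limma, under the fold threshold), or 1.07 and called by limma-voom.

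Pcgf1, Pcgf6 and L3mbtl2 were not called between KO and WT at any day. At day 0 Pcgf1, the PCGF protein of PRC1.1, had 126 and 129 normalized counts in WT and 51.4, 88.4, 95.8 and 82.3 in the KO libraries, all lower. The KO effect was −0.19 on the log2 scale at day 0 (adjusted p = 0.0114), −0.15 at day 2 (adjusted p = 0.0272) and 0.00 at day 4 (limma), or −0.65, −0.52 and 0.00 by limma-voom. Its transcript matches the pseudogene Gm8930 at 97.5% over 764 bases, and at these low counts reads could be split between them. At day 0 Pcgf6, the PCGF protein of PRC1.6, had 788 and 778 normalized counts in WT and 901, 1045, 978 and 915 in KO, and the order turned at day 2, with 1106 and 1169 in WT and 981, 958, 991 and 970.5 in KO. Its fold change was 0.18 at day 0 (adjusted p = 0.00854), −0.15 at day 2 (adjusted p = 0.0211) and 0.05 at day 4, and the effect of day 2 differed from that of day 0 by −0.33 (adjusted p = 0.00209, limma, under the fold threshold). At day 4 L3mbtl2, a reader of PRC1.6, had 1489 and 1443 normalized counts in WT and 1813, 1978, 1769 and 1739 in KO, with a fold change of 0.23 (adjusted p = 0.00434, limma, under the fold threshold). It was 0.07 at day 0 and 0.14 at day 2. Of its exon bases, 17.2% overlap Chadl on the opposite strand.

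Counted together, 0 of the 10 members were called at day 0 by limma, 0 by limma-voom, and 6 had an unadjusted p under 0.05. Over all genes, 2.61% were called by limma at day 0, 13.3% by limma-voom, and 39.4% had an unadjusted p under 0.05. A count of 0 in 10 members lies close to the 2.61% of all genes, and so shows nothing particular to the members. At day 2, 2 members were called, both lower (Bcor and Kdm2b), by limma and limma-voom alike, against 6.38% of all genes in either direction, 2.37% lower, and 23.9% by limma-voom. At day 4, 1 was lower (Bcor) and 2 were higher (Cbx7 and Phc1), again by both tools, against 7.58% of all genes in either direction, 3.91% lower, 3.67% higher, and 23.9% by limma-voom. The other members were called at no day by either tool. KO and WT libraries did not overlap for 7 members at day 0, 7 at day 2 and 5 at day 4, beside 47.4%, 57.5% and 49.8% of all genes. The median log2 fold change of the members was −0.078, −0.121 and 0.021, beside −0.0032, −0.0159 and 0 over all genes.

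By limma, the KO effect itself changed from day 0 to day 4 in 3 members (Bcor, Cbx7 and Phc1) and from day 2 to day 4 in 2 (Cbx7 and Phc1), and from day 0 to day 2 in none. Over all genes the same contrasts were called for 6.93%, 6.41% and 3.19%. By limma-voom the counts were 3, 3 (with Kdm2b in addition) and 0, beside 14.9%, 13.8% and 7.34% of all genes. Within WT, 1 member was called between day 0 and day 2 (Kdm2b, higher), where 6.68% of genes were, and 4 between day 0 and day 4 (Bcor and Cbx2 higher, Cbx7 and Phc1 lower), where 13.8% were. By limma-voom the first count was 2, with Cbx2 higher in addition, and the last was 7, with Kdm2b and Ring1 higher and Pcgf1 lower in addition, beside 19.5% and 34.7% of all genes. Within KO, 0 members were called between day 0 and day 2, where 3.20% of genes were, and 2 between day 0 and day 4 (Kdm2b higher, Phc1 lower), where 6.50% were. By limma-voom these counts were 0 and 3, with Cbx2 higher in addition, beside 16.3% and 27.5% of all genes. The comparisons at one day share their WT libraries with the WT courses, so these counts are not independent of each other.

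**Figure D2:**
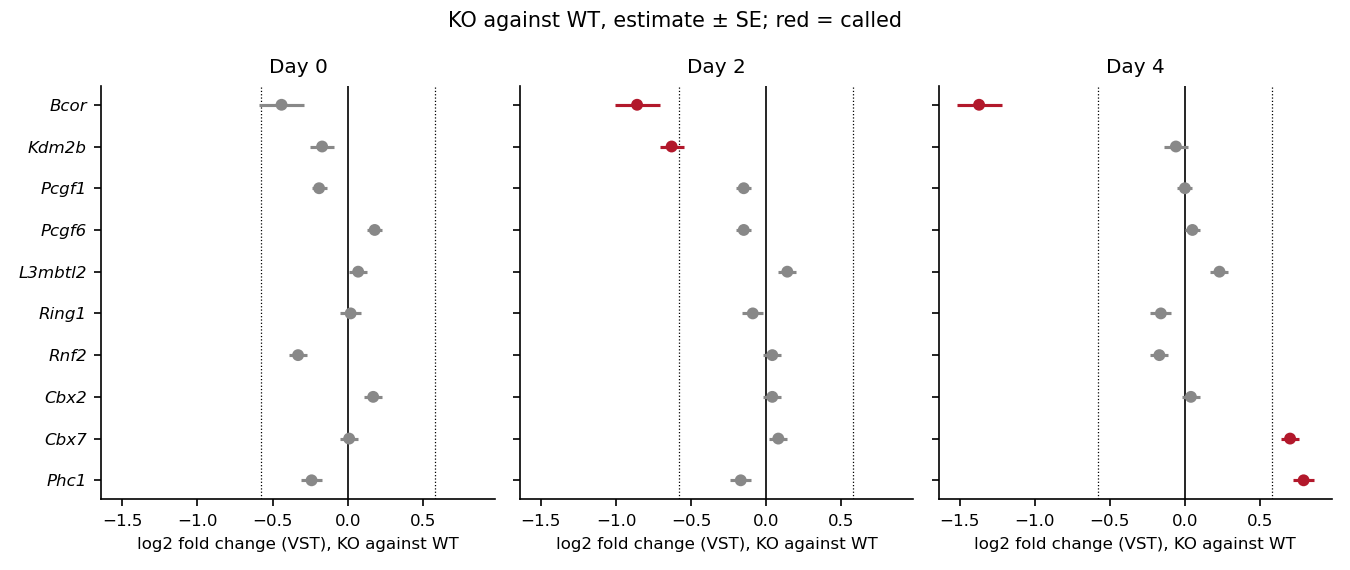
Log2 fold change on the VST scale (x), KO against WT, of the 10 members (y) at day 0, 2 and 4, with points at the limma estimate, bars of 1 SE, dotted lines at the fold threshold of 0.58 and red for called members. No member is red at day 0, Bcor and Kdm2b are at day 2, and Bcor (−1.37), Cbx7 (0.70) and Phc1 (0.79) at day 4.

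Bcor was also the member in which the clones stood furthest apart. KO-1 exceeded KO-2 by 0.44 at day 0 (adjusted p = 0.00259), 0.47 at day 2 (adjusted p = 0.00100) and 0.27 at day 4 (adjusted p = 0.0135, limma with 9 groups of line and day), under the fold threshold at each day. By limma-voom the differences were 0.89, 1.03 and 0.58, and Bcor was the single member called at each day. Kdm2b was higher in KO-1 at day 4 by 0.24 (adjusted p = 0.00627, limma, not called). On the VST scale 0 members were called between the clones at any day, as were 0.0290%, 0.0435% and 0.251% of all genes, and by limma-voom 0.159%, 0.232% and 2.23% of all genes were. At day 0 the difference of Bcor from WT was −0.22 with KO-1 alone (adjusted p = 0.0473, not called) and −0.66 with KO-2 alone (adjusted p = 8.12e-09, called, limma), so that its size there rested on the clone. The remaining RNA of Nsd1 also differed between the clones at day 4, with 1103 and 910.1 normalized counts in KO-1 and 575 and 684 in KO-2, by 0.41 (adjusted p = 0.00294, limma, under the fold threshold) or 0.66 and called by limma-voom. At day 0 and day 2 it was called by neither tool.

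Paralogs were weighed against each other by their share of summed TPM. Among the polyhomeotic genes, Phc1 held 96.0% ± 0.43 (SD, n = 2), 93.2% ± 0.18 and 61.5% ± 0.35 in WT over the 3 days, and in KO 93.4% ± 0.88 (SD, n = 4), 87.5% ± 0.68 and 76.6% ± 4.0. Phc2 took most of the rest, with 37.3% in WT and 22.6% in KO at day 4. The share of Phc1 was thus the lower in KO at day 0 and day 2 and the higher at day 4. Among Cbx2, Cbx6, Cbx7 and Cbx8, from day 0 to day 4 Cbx7 went from 59.7% ± 1.7 to 27.1% ± 0.028 in WT and from 52.9% ± 0.98 to 35.2% ± 1.0 in KO, and Cbx2 from 22.9% ± 1.6 to 51.7% ± 1.0 in WT and from 24.4% ± 2.5 to 36.1% ± 1.6 in KO. In WT at day 4 Cbx2 had thus overtaken Cbx7, whereas in KO the shares of both were close. Bcor held 56.7%, 52.0% and 54.2% of the summed TPM of Bcor and Bcorl1 in WT at the 3 days, and 44.2%, 34.0% and 28.4% in KO. The sum of both went from 34.9 TPM at day 0 to 82.7 TPM at day 4 in WT, and from 27.3 to 34.1 TPM in KO, with Bcorl1 at 37.9 TPM in WT and 24.3 TPM in KO at day 4. No test was run on the shares.

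**Figure D3:**
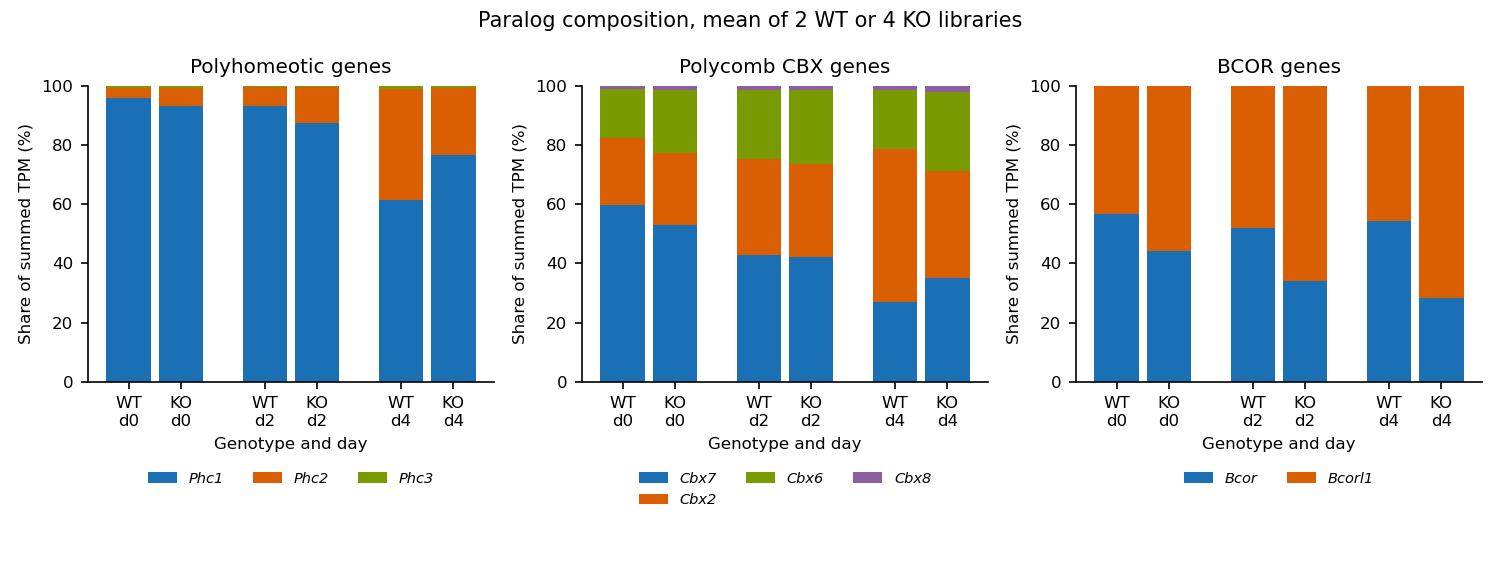
Mean share of summed TPM (y, percent) of the polyhomeotic genes, of 4 CBX genes and of the BCOR genes in WT (2 libraries) and KO (4 libraries) at day 0 (d0), day 2 (d2) and day 4 (d4), with colours for genes. At day 4 Phc1 and Cbx7 hold more in KO (76.6% and 35.2%) than in WT (61.5% and 27.1%), and Bcor holds less in KO at each day.

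Other PRC1 subunits, 31 genes of the PRC1.1, PRC1.6, canonical, PRC1.3 and PRC1.5 complexes, were compared by the same fit. By limma, 3 were higher in KO and 0 lower at day 0, where 1.73% of all genes were higher and 0.879% lower. At day 2, 4 were higher and 0 lower, beside 4.01% and 2.37% of all genes, and at day 4, 5 were higher and 1 lower, beside 3.67% and 3.91%. By limma-voom 5, 5 and 8 were higher and 0, 0 and 3 lower, against the 13.3%, 23.9% and 23.9% of all genes called in either direction. The median log2 fold change of the 31 genes was −0.056, 0.024 and −0.006. Bmi1, also known as Pcgf4 and 1 of the 2 PCGF proteins of canonical PRC1, was higher at every day. It had 109.9 and 44.6 normalized counts in WT and 332, 364, 325 and 273 in KO at day 0, and 82.5 and 106 in WT and 457, 423, 367 and 444 in KO at day 4. Its log2 fold change was 0.70, 0.84 and 0.80 on VST and 2.04, 2.06 and 2.12 by limma-voom, and the groups were far apart. Its share among the PCGF genes was 2.33% in WT and 9.65% in KO at day 0, 3.92% and 13.9% at day 2, and 2.77% in WT and between 9.67% and 11.7% in the KO libraries at day 4. Pcgf2, the other PCGF protein of canonical PRC1, was the more abundant, with 36.7% of the PCGF genes in WT and 34.1% in KO at day 0 and 38.4% and 33.3% at day 4. It was called at no day by either tool, with log2 fold changes of −0.06, 0.14 and −0.03 (each with an SE of 0.08) and overlapping groups.

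Scmh1, a sex comb protein of canonical PRC1, was likewise higher at each day, with 0.66, 0.67 and 0.78, or 1.22, 1.49 and 1.69 by limma-voom. Auts2, a subunit of PRC1.3 and PRC1.5, was higher by 0.68, 0.69 and 1.01, with 1.11 at day 0 and 1.82 at day 4 by limma-voom. The remaining calls by limma were at single days. Phc2 was higher at day 2 (0.60), with 1056 and 1073 normalized counts in WT and between 1747 and 1978 in KO. Cbx6 (0.77) and Usp7 (0.70), the deubiquitinase of PRC1.1, were higher at day 4. Scml2 was lower at day 4 (−1.09, or −5.04 by limma-voom), with 298 and 313 normalized counts in WT and between 6.41 and 20.3 in KO. Bcorl1, the paralog of Bcor, had a fold change of −0.48 at day 4, under the threshold, and of −0.73 by limma-voom, which called it. None of the 9 other PRC1.6 genes was called at any day by limma, and limma-voom called Mga, the scaffold of PRC1.6, higher at day 4 (0.60). Rybp was called by neither tool. Yaf2, its paralog, was not called by limma between KO and WT at any day, and limma-voom called it higher at day 0 (1.08) and lower at day 4 (−0.71). It had 123 and 159.7 normalized counts in WT and between 233 and 315 in KO at day 0, and 860 and 791 in WT and between 436 and 561 in KO at day 4, so that its order turned. The difference between its KO effects of day 4 and day 0 was called, as lower, by limma and by limma-voom. Further calls of limma-voom alone were Phc2 at day 0 (0.64), Fbrs at day 2 (0.78), and Cbx8 (1.16) and Pcgf5 (0.69) at day 4, all higher. The list of 8 canonical genes had 2, 3 and 3 higher and 0, 0 and 1 lower at the 3 days, and a median log2 fold change of 0.241, 0.160 and 0.104.

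**Figure D4:**
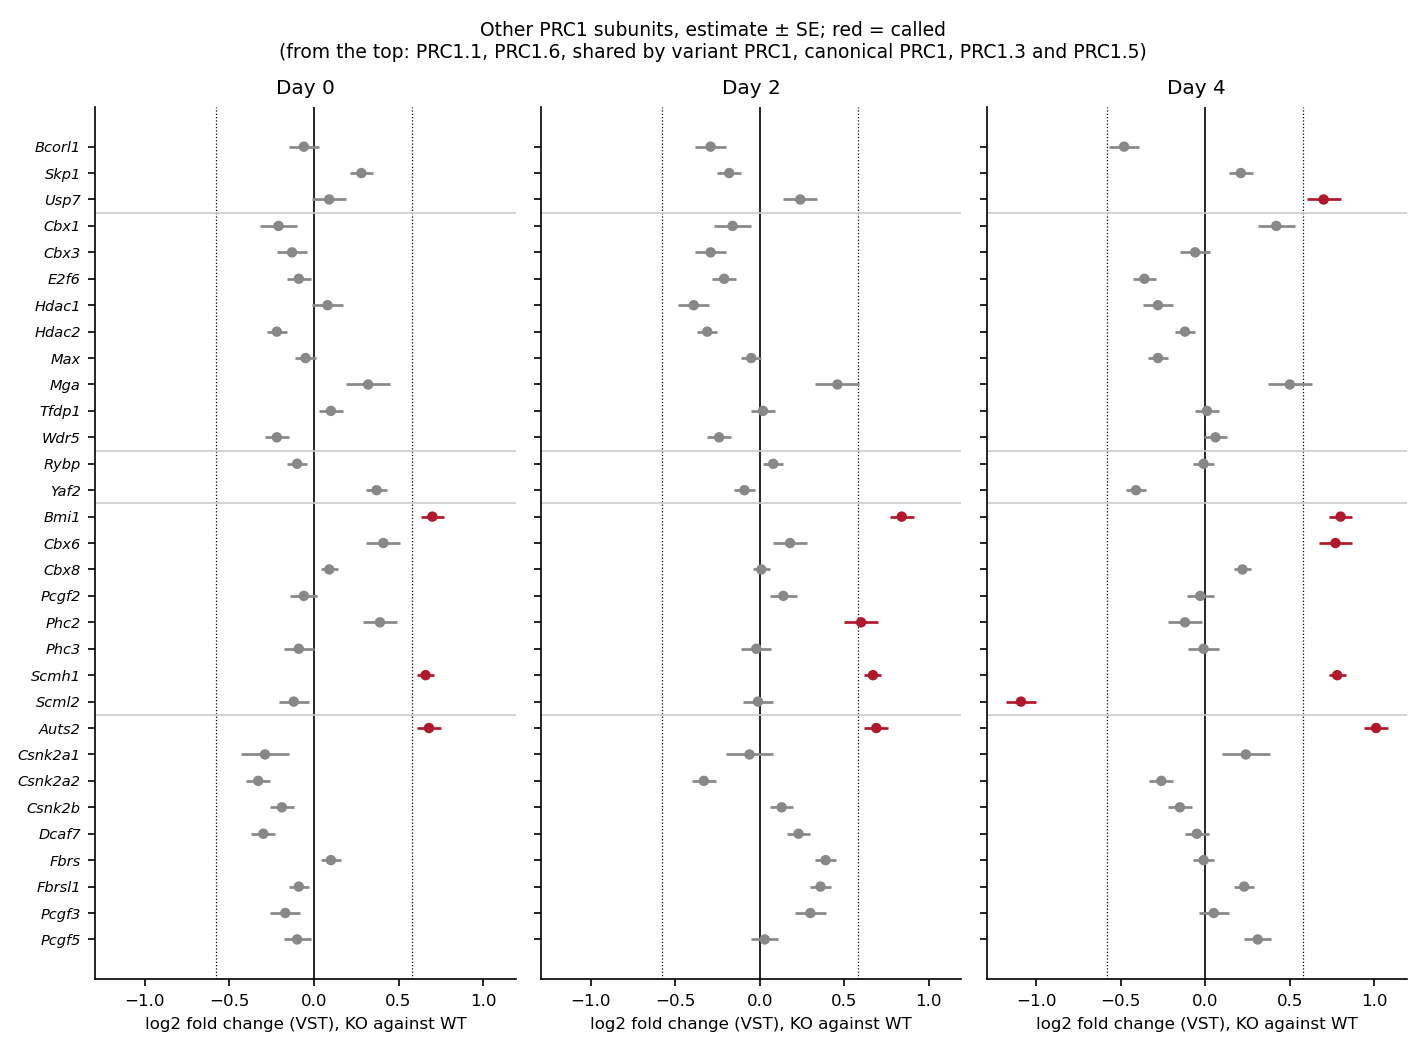
Log2 fold change on the VST scale (x), KO against WT, of 31 other PRC1 subunits (y, in blocks by complex) at day 0, 2 and 4, with points at the limma estimate, bars of 1 SE, dotted lines at 0.58 and red for called genes. Bmi1, Scmh1 and Auts2 are red and to the right at every day, and Scml2 (−1.09) is red and to the left at day 4.

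Genes that act beside PRC1 were counted in the same way, to be read against the shares of all genes given above. Of 10 genes of H2AK119 deubiquitination, limma called Foxk2 higher at day 2 (0.59) and Asxl1, the partner of Bap1, at day 4 (0.84), and 0 lower at any day. By limma-voom both were called as well, and Asxl3 was lower at day 4 (−0.89). The median log2 fold change of the 10 was 0.045, 0.118 and 0.027. Of 12 PRC2 genes, 0 were called at day 0 by limma or limma-voom, where 6 had an unadjusted p under 0.05. At day 2 limma called 0, with Jarid2 and Phf19 at 0.57 and Suz12 at 0.51, and limma-voom called 3 higher, Suz12 (0.59), Jarid2 (0.63) and Phf19 (2.00), and 11 had an unadjusted p under 0.05, beside 52.3% of all genes. At day 4 both tools called 2 higher, Rbbp7 (0.61) and Phf19 (0.66, or 2.39 by limma-voom). All KO libraries lay above WT for 5, 9 and 8 of the 12 at the 3 days and below WT for 5, 2 and 2. Over all genes, KO and WT did not overlap, in either direction, for 47.4%, 57.5% and 49.8%. The share in each direction is not given, so these counts are not read as particular to PRC2. The median log2 fold change of the 12 was −0.024, 0.213 and 0.193. Phf19, which links PRC2 to H3K36 methylation, had 37.2 and 48.0 normalized counts in WT and between 212 and 242 in KO at day 4.

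Of 9 germline genes that PRC1.6 is known to repress, calls went both ways. By limma 0 were higher and 1 lower at day 0, 1 and 1 at day 2, and 3 and 0 at day 4, and by limma-voom 2 and 3, 2 and 4, and 5 and 0. Over all 20703 genes limma called 359 higher and 182 lower, 831 and 490, and 760 and 809 at these days. For limma-voom those counts were 1331 and 1421, 2136 and 2813, and 2266 and 2691. The median log2 fold change was −0.076, −0.114 and 0.309. Mael, a gene of transposon silencing in germ cells, was lower in KO at day 0 (−1.25, or −2.53 by limma-voom) and day 2 (−1.14, or −2.99), with 1152 and 886 normalized counts in WT and between 153 and 218 in KO at day 0. Smc1b, a meiotic cohesin, was higher at day 2 (0.59, or 2.07 by limma-voom). Ddx4 (1.39, or 2.49), Stk31 (1.11) and Slc25a31 were higher at day 4, where 0 were lower. Ddx4, an RNA helicase of germ cells, had 237 and 250.0 normalized counts in WT and 1536, 1317, 1301 and 1388 in KO at day 4. Slc25a31 had no count in either WT library of day 4 and between 39.7 and 78.4 normalized counts in KO. Stk31 went from 374 and 359.7 in WT at day 0 to 18.1 and 6.31 at day 4, while the KO libraries of day 4 had between 297 and 346. Dazl, Taf7l, Sycp3 and Tdrkh were called by limma-voom alone. Dazl, an RNA-binding protein of germ cells, was lower at day 0 (−0.96) and higher at day 4 (3.84), where it had 8.05 and 3.79 normalized counts in WT and between 71.4 and 108 in KO. Taf7l, a germ cell paralog of a TFIID subunit, was lower at day 0 (−1.73) and at day 2 (−3.12), where it had 97.8 and 84.3 normalized counts in WT and between 6.24 and 19.5 in KO.

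Markers of cell state also differed between KO and WT, at day 2 and day 4, and their part in the differences above was not tested. At day 0, where Bmi1, Scmh1 and Auts2 were called higher and Mael lower, limma called 0 of the mESC, primitive streak and mesoderm, neuroectoderm and endoderm markers. By limma-voom 1 endoderm marker was lower at that day. At day 4 the 4 primitive streak and mesoderm markers T, Mixl1, Eomes and Mesp1 were all lower in KO, with sums of 29729.7 and 28913 normalized counts in WT, 829 and 852 in KO-1, and 314 and 381 in KO-2. T was the most abundant of them in WT and Eomes in KO, and Mesp1 was at 0 in 3 of the 4 KO libraries. Of 5 mESC markers, 4 were higher in KO at day 2 and at day 4 (Nanog, Sox2, Zfp42 and Esrrb), and Pou5f1 was lower at day 2. At day 4 Pou5f1 had 5468 and 5366 normalized counts in WT and 3252, 3627, 3755 and 3515 in KO, all below WT, and its −0.54 (adjusted p = 2.68e-05, limma) was just under the fold threshold, whereas limma-voom called it at −0.61. The sums of the 5 markers at day 2 were 13590.1 and 12717 in WT and between 19059 and 21972 in KO. At day 4 they were 8053 and 8010.0 in WT, 15517 and 16039 in KO-1, and 14950.1 and 14344 in KO-2. Pou5f1 was the most abundant in WT and Sox2 in KO, and none was at 0. Of the neuroectoderm markers Sox1 and Pax6, Sox1 was higher in KO at day 2 (0.68) and day 4 (1.72). Pax6 was not called by either tool, with 88.0 and 76.2 normalized counts in WT and between 11.6 and 80.0 in KO at day 2, and 0 and 1.89 in WT and between 26.6 and 78.9 in KO at day 4. Of the endoderm markers Gata6, Sox17 and Foxa2 at day 4, limma called Gata6 lower (−1.48) and limma-voom also Sox17 (−3.04). Foxa2 lay the other way, with 12.1 and 18.9 normalized counts in WT and between 33.8 and 109 in KO, and was called by neither tool. At day 4, the day at which Cbx7 and Phc1 differed, the KO libraries thus held more RNA of 4 of the 5 mESC markers and far less of the mesodermal markers.

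Of 7 feeder or fibroblast markers, 3 collagen genes were higher in KO at day 0 (Col1a1, Col1a2 and Col3a1). Thy1 overlapped, with 377 and 299 normalized counts in WT and between 328 and 366 in KO. Postn also overlapped, with 33.5 and 25.9 in WT and between 28.9 and 63.6 in KO, and Dcn reached at most 10.6 in any library. The sums of all 7 were 2616 and 2555 normalized counts in WT, 4412 and 4317 in KO-1, and 4977 and 5086 in KO-2. Col1a1 was the most abundant, and Lum was at 0 in all 6 libraries of the day. At day 2 the order was turned, with 1044.5 and 899.5 in WT and between 543 and 691 in KO, and limma called Thy1 lower. At day 4 the sums were 2327 and 2175 in WT, 547 and 615 in KO-1, and 1245 and 1149 in KO-2, and limma called Col1a1 lower. The part of feeder RNA in the values of any day was not tested.

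By the similarity of their VST values over the 18 libraries, among 10228 genes with a mean of at least 100 normalized counts, the genes most like Bcor were Ctsc (Pearson r 0.952), Lad1 (0.933) and Mphosph10 (0.933). Those most like Kdm2b were Zfp608 (0.972), Kif1a (0.970) and Zmynd8 (0.970). Cbx7 was closest to Kdm4c (0.982), Vars (0.962) and Rtkn2 (0.956), and Phc1 to Ubash3a (0.989), Gldc (0.970) and Trap1 (0.968). Among the members themselves, Cbx7 and Phc1 were the most alike, with r 0.938. The 18 libraries share their days and genotypes, so that these values describe the same few groups.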

How the data were processed

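Poly-A RNA of 18 libraries was sequenced from a kit that keeps no strand. The authors trimmed reads with Trim Galore 0.6.7, aligned them to mm39 with STAR 2.7.11a, counted primary, nonduplicated fragments on exons with featureCounts 2.0.6, removed genes with an average count under 1, and deposited DESeq2 1.42.0 VST values, which are on a log2 scale. Inverting the VST gave whole counts for 100% of values (tolerance 0.05) and the size factors of the authors. Of counts up to 20, between 72.5% and 77.5% per library were even, for a reason not known here. If both read ends of some fragments were counted, which was not determined, fewer independent fragments stand behind the printed counts and the limma-voom weights than the counts say, whereas limma on VST took its error from the spread between libraries.

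Groups (WT and KO by day, 6 in all, KO-1 and KO-2 pooled) were fitted with limma 3.58.1 (R 4.3.3) with a variance trend, and p-values were adjusted by Benjamini-Hochberg over 20703 genes. Clones were compared in a fit of 9 groups. The p-values of the 6-group fit rest on the spread between libraries of a group, which in KO includes the difference between the 2 clones, and those of the clone fit on the spread between replicates of a line. The 6-group fit counted the 4 KO libraries of a day as independent, although they come from 2 clones. Its p-values therefore do not measure the spread between independent clones. A difference of genotype cannot be told apart here from a difference between lines. limma-voom on the recovered counts, other normalizations, filters and thresholds, each clone alone, a replicate block and leaving out each library were tried as alternatives. TPM used exon lengths of GENCODE M21 on GRCm38, found for 20592 genes (99.5%). Members, gene lists and tests were chosen with earlier results of these data known. The genes most alike were the 3 with the highest Pearson r to each called member. Genes of the complexes, of PRC2 and of the germline were named where called by either tool, and Pcgf2 and Rybp in addition, after their values were seen. Of the PRC1 subunits, 1 is not reported here. Scripts were tested on simulated data.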

Additional observations from a re-analysis of the deposited data

Results flagged for a closer look

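Bcor, Cbx7 and Phc1 stood out because their difference between KO and WT changed between days past both thresholds, of adjusted p and of fold. The test was that of the difference between effects (limma with Benjamini-Hochberg adjustment over all genes). By the same test Kdm2b, Pcgf6 and Rnf2 passed the p threshold but not that of the fold. For Bcor the KO effect of day 4 minus that of day 0 was −0.92 on the log2 scale (adjusted p = 0.00217), with all 4 KO libraries below both WT libraries at either day, and the call was lost without replicate 2 of WT day 0 (adjusted p = 0.0163) or replicate 1 of WT day 4 (adjusted p = 0.0214). For Cbx7 it was 0.69 (adjusted p = 1.18e-06), and that of day 4 minus that of day 2 was 0.62 (adjusted p = 4.74e-06), with all 4 KO libraries above both WT libraries at day 4. For Phc1 the same differences were 1.03 (adjusted p = 7.54e-08) and 0.97 (adjusted p = 2.31e-07), with the KO libraries below WT at day 0 and above it at day 4. In each of these the WT level had moved the more. No single library stood far from the others in 30 groups of 4 KO libraries, 1 for each member and day.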

How the results depend on the processing

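No fold change of a member that was called turned its direction under any of the alternatives run. The call of Bcor at day 4 held under every alternative run, and those of Bcor at day 2 and of Cbx7 and Phc1 at day 4 were lost only at the fold threshold of 1. At day 0, 0 members were called, against 1 with KO-2 alone (Bcor) and 6 at an adjusted p under 0.05 with any fold. At day 2 the 2 calls became 1 with KO-1 alone, 1 after centring each library on the median, 4 at an adjusted p under 0.05 and 0 at a fold threshold of 1, and between 1 and 2 when a library was left out, where replicate 2 of WT day 2 gave the 1. At day 4 the 3 calls became 5 at an adjusted p under 0.05 and 1 at a fold threshold of 1. The 3 calls between the KO effects of day 4 and day 0 became 1 at a fold threshold of 1, and between 2 and 3 when a library was left out, where replicate 2 of WT day 0 and replicate 1 of WT day 4 each gave the 2 by ending the call of Bcor. The 4 calls within WT from day 0 to day 4 became 7 by limma-voom, 8 at an adjusted p under 0.05, 2 at a fold threshold of 1, and between 2 and 4 when a library was left out, where replicate 2 of WT day 0 gave the 2. The 2 calls within KO became 3 by limma-voom, 6 at an adjusted p under 0.05, and 0 at a fold threshold of 1. Between the clones, 0 calls became 1 (Bcor) by limma-voom at each day. The cause of these shifts was not tested, beyond the thresholds themselves.

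Over the alternatives the fold change of Bcor ran from −0.89 to −0.22 at day 0 (adjusted p 8.12e-09 to 0.175) and from −2.32 to −1.23 at day 4, that of Phc1 at day 4 from 0.72 to 0.91, and that of Cbx7 from 0.63 to 0.96. With the replicate block the member counts were 0, 2 and 3 at the 3 days, 3 between effects, 4 within WT, 2 within KO and 0 between clones, and it changed no call. Replicate numbers did not pair the libraries, with a mean correlation of −0.0476 (−0.612 to 0.636) between replicate differences of 36 pairs of groups.

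Over all genes, limma called 541, 1321 and 1569 between KO and WT and limma-voom 2752, 4949 and 4957. At an adjusted p under 0.05 the counts were 6149, 9515 and 7700, and at a fold threshold of 1 they were 80, 277 and 553. For the difference between effects limma called 1435 and limma-voom 3085, within WT 2864 and 7186, within KO 1345 and 5691, and between clones 6, 9 and 52 against 33, 48 and 462, or 0 at each day when only the 4 KO libraries of the day were fitted. At day 2, 831 genes were higher and 490 lower, against 1007 and 355 after centring on the median and 2136 and 2813 by limma-voom, where the median of all genes was −0.14. The low counts of Pcgf1 and Ring1 and the shallow WT libraries of day 2 may limit the smallest change that could be detected there, which was not measured.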
